A study of Mus musculus with 12 samples.

Results

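The miR-26 and miR-29 families were described in exosomal small RNA of mouse granulosa cells, the somatic cells that surround the oocyte in the ovarian follicle. The members were taken by name from the deposited counts, and all 5 were found among the 637 miRNA entries: mmu-miR-26a-5p and mmu-miR-26b-5p of the miR-26 family, and mmu-miR-29a-3p, mmu-miR-29b-3p and mmu-miR-29c-3p of the miR-29 family. The cells, per the study's methods, came from female Kunming mice given pregnant horse serum gonadotropin before their ovaries were removed. They spent 24 h in medium free of exosomes and 48 h in culture, with 3 libraries in each of 4 groups. CON cells had no treatment in culture. FAC cells received 100 μM ferric citrate, which loads cells with iron. DFO cells received 100 μM ferric citrate and 100 μM deferoxamine mesylate, an iron chelator. VE cells received 100 μM ferric citrate and 200 μM VITE, an antioxidant, so ferric citrate was shared by every group but CON. The ages of the mice and the number of animals or cultures behind a library are not given in the sources used here, so p-values measure the spread between these libraries, which may be technical.

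A miRNA guides Argonaute proteins to messenger RNAs, and bases 2 to 8 from its 5′ end, the seed, pair with the target. miRNAs with the same seed form a family, since they can pair with largely the same targets. The miR-29 family is known for silencing collagens and other matrix proteins as well as DNA methyltransferases. The miR-26 family lies within genes of small phosphatases of the Ctdsp family and is known for silencing the histone methyltransferase Ezh2. Both families are found in many tissues.

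The mature sequences are shown because the families are defined by the seed and because some members differ by so few bases that reads may be hard to assign. They are RefSeq's, from 5′ to 3′, with the seed in capitals, and all 5 members matched by name.

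mmu-miR-26a-5p: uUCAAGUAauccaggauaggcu
mmu-miR-26b-5p: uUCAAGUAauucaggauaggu
mmu-miR-29a-3p: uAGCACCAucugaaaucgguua
mmu-miR-29b-3p: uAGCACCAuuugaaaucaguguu
mmu-miR-29c-3p: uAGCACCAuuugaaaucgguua

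Of the 1679 mature mouse miRNAs in the RefSeq table, the seed UCAAGUA was found in 2 and the seed AGCACCA in 3, which are the members themselves. Counted from the 5′ end, miR-26b-5p differed from miR-26a-5p by C11U and C21U and was 1 base shorter. miR-29c-3p differed from miR-29a-3p by C10U alone. miR-29b-3p differed from miR-29a-3p by C10U, G18A, U21G and A22U and was 1 base longer. How the authors assigned reads that match several miRNAs is not given in the sources used here, so the split between members, above all between miR-29a-3p and miR-29c-3p, is uncertain.

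The hairpins were placed with RefSeq on GRCm38.p6, while the submitters' processing notes name mm9, so the positions describe the genes and entered no value. Mir26b lies at chr1:74394310-74394394 (plus strand) in an intron of Ctdsp1, and Mir26a-1 at chr9:119031796-119031885 (plus strand) in an intron of Ctdspl. Mir26a-2 lies at chr10:126995530-126995613 (plus strand) in Ctdsp2, intronic but for 1 base of an exon. The miR-29 genes form 2 pairs. Mir29a at chr6:31062660-31062747 and Mir29b-1 at chr6:31063023-31063093 (minus strand) are separated by 275 bases. Mir29a overlaps no other annotated gene, and Mir29b-1 shares 2 bases with an exon of the noncoding RNA Gm27019. Mir29b-2 at chr1:195037040-195037120 and Mir29c at chr1:195037547-195037634 (plus strand) are separated by 426 bases and lie in exonic sequence of the noncoding RNA A330023F24Rik, opposite an exon of Cd46 on the minus strand. miR-26a-5p and miR-29b-3p can each come from 2 hairpins, which cannot be told apart in these counts.

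The miRNA counts of a library summed to between 452021 and 7565362. The deposited RPM values imply library totals of 22631206 to 24845945 reads, of which miRNAs made up 3.28% ± 1.55 (SD, n = 3) in CON, 24.7% ± 4.96 in FAC, 12.6% ± 7.16 in DFO and 11.97% ± 2.69 in VE. A floor of 3 counts, covering counting error only, was 0.351 to 7.90 CPM, the counts relative to the summed miRNA counts of a library after TMM scaling. All 4 granulosa cell markers on the list used here were found, but their summed level was only 0.314 to 363 CPM, with miR-202-5p in 1 library and miR-212-3p in 2. The liver marker miR-122-5p stood at 41724 to 183380 CPM in the 12 libraries. The blood list summed to 7286 to 169596 CPM, nearly all of it from miR-486a-5p, read from an entry that joins 2 miRNAs. Of its other markers, miR-451a was found in 12 libraries, at a mean of 736 CPM. miR-144-3p, miR-142a-3p and miR-223-3p were each found in 1 library. The stromal list summed to 14034 to 109235 CPM, nearly all of it from miR-143-3p (mean 39841 CPM). Fewer cells of a type and less RNA per cell cannot be told apart in such libraries. The RNA came from exosomes of culture supernatant rather than from cells, and the source of the listed miRNAs was not tested.

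In each family 1 member held nearly all of the reads. miR-26a-5p had 20970 counts over the 12 libraries and miR-26b-5p 458. miR-29a-3p had 21667 counts, miR-29b-3p 178 and miR-29c-3p 23. Both abundant members were found in every library, miR-26a-5p ranking between 50 and 96 and miR-29a-3p between 42 and 120 of 637 entries. In a list of 10 other widely expressed miRNAs joined with the 5 members and ordered by mean CPM, miR-26a-5p stood 8th at 506 CPM and miR-29a-3p 10th at 400 CPM. miR-26b-5p, miR-29b-3p and miR-29c-3p stood 12th, 14th and 15th, at 7.65, 4.28 and 0.519 CPM.

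The members were first compared within libraries, where depth and composition are shared, in 4 pairs. miR-26a-5p exceeded miR-26b-5p in 12 of 12 libraries, by 8.46 ± 2.40 on the log2 CPM scale with a prior count of 2 (SD, n = 12, exact two-sided permutation test, p = 0.000488, the smallest that 12 libraries allow). miR-29a-3p exceeded miR-29b-3p by 7.78 ± 1.49 and miR-29c-3p by 8.27 ± 1.02, each in 12 of 12 libraries with the same exact p of 0.000488. The differences were therefore far larger than their spread between libraries. miR-29b-3p and miR-29c-3p differed by 0.49 ± 1.78 (exact permutation p = 0.383), miR-29b-3p having more counts in 4 libraries, fewer in 5 and as many in 3. For the sparse members the size of a difference depends on the prior count.

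**Figure D1:**
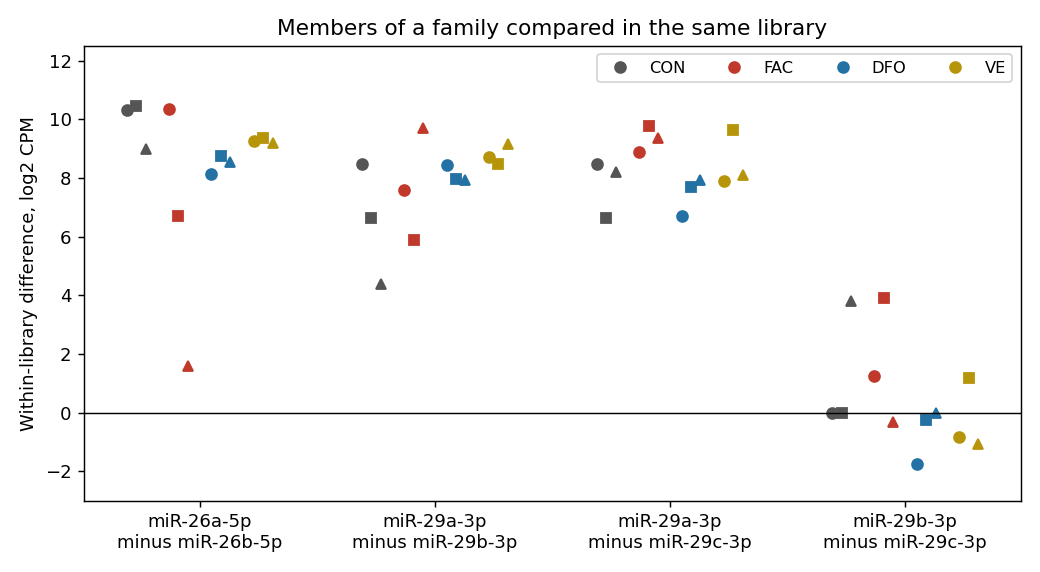
Difference between members of a family in the same library, in log2 CPM (vertical axis), for the 4 pairs (horizontal axis), with 1 point per library coloured by group and shaped by replicate (circle, square and triangle for 1, 2 and 3). The first 3 pairs lie above 0 in all 12 libraries, with the smallest gap between miR-26a-5p and miR-26b-5p in FAC replicate 3 (1.60), while miR-29b-3p and miR-29c-3p lie on both sides of 0.

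The makeup of the miR-26 family moved in 1 library. miR-26b-5p was 24.8% of the family's reads in FAC replicate 3 (95% Wilson interval 22.8 to 26.9, 421 of 1701 counts) and 0.836% in FAC replicate 2 (0.586 to 1.19). In the other 10 libraries it was between 0% and 0.151%. These intervals cover counting error only, and the 421 counts were 2.14 times the commonest count of that library, described with the low counts. Where it had 0 counts, the depth allowed a share of up to 0.0462% in FAC replicate 1 and up to 1.61% in CON replicate 3. The miR-29 family kept the same leading member throughout, miR-29a-3p making up from 95.2% to 100% of its reads. Its lowest share was in CON replicate 3, where miR-29b-3p took 4.52% (2.91 to 6.96, 19 of 420 counts).

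On the CPM scale, miR-26a-5p showed no difference between groups beyond the spread of the libraries. Its level was 736, 808 and 292 CPM in CON replicates 1 to 3 and 761, 475 and 260.0 CPM in the FAC replicates. In DFO it was 261, 476 and 498 CPM, and in VE 355, 624 and 524 CPM. The libraries of all 4 groups overlapped, and the lowest and the highest CON library differed more than any of the group means. The group means were 612 ± 279 CPM in CON, 499 ± 251 in FAC, 412 ± 131 in DFO and 501 ± 136 in VE (SD, n = 3 each).

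In edgeR's quasi-likelihood test over 547 entries, the log2 fold change of miR-26a-5p from CON to FAC was -0.30 (standard error 0.86, adjusted p = 0.886). The 95% interval from the standard error ran from -1.99 to 1.40, so a change within it could not be told from none. FAC differed from DFO by 0.28 and from VE by -0.01, and DFO and VE differed from CON by -0.57 and -0.29, with standard errors of 0.86 to 0.87 and adjusted p in edgeR of 0.886 to 1 over the 5 comparisons. The sign of the FAC to CON difference turned when counts were scaled by the total miRNA counts (0.076) or by the library read totals (2.99).

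miR-29a-3p was highest in FAC. Its level was 207, 57.9 and 629 CPM in CON replicates 1 to 3 and 546, 1094 and 649.7 CPM in the FAC replicates. In DFO it was 203, 233 and 141 CPM, and in VE 243, 461 and 333 CPM. All 3 FAC libraries lay above every DFO and VE library, while CON replicate 3 lay inside the FAC range and the CON libraries spanned more than the DFO and VE libraries together. The means fell in the order FAC (763 ± 291 CPM), VE (346 ± 109), CON (298 ± 296) and DFO (192 ± 46.6; SD, n = 3 each), and only the step between FAC and VE was larger than the SDs of both of its groups.

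Between FAC and DFO the log2 fold change of miR-29a-3p was 1.99 (standard error 0.94, unadjusted p = 0.0343), past the study's threshold of a fold change of 1.5 and p of 0.05. After adjustment over the 547 entries the edgeR p was 0.351. It was the only member past that threshold in this comparison, as were 12.2% of all tested entries, and the only one whose libraries did not overlap, as were 16.6%. The median log2 fold change over all tested entries was 0.66, and with filterByExpr, which drops sparse entries, it was -0.17 and that of miR-29a-3p 1.70. The call was lost with edgeR's RLE factors, at a log2 fold change of 1.79 and an unadjusted p of 0.0531. It was also lost without FAC replicate 2 and without any of the DFO replicates, at log2 fold changes of 1.55, 2.07, 2.15 and 1.81 and unadjusted edgeR p of 0.143, 0.0563, 0.0522 and 0.0835. The difference stayed positive under every alternative, from 1.55 to 3.24. The granulosa list was also higher in FAC (44.3 to 248 CPM) than in DFO (4.13 to 35.7 CPM). By mean CPM this was mainly miR-503-5p (135 in FAC, 13.0 in DFO) and miR-132-3p (22.0 and 3.73). miR-202-5p and miR-212-3p were at 0 in CON, DFO and VE alike. The muscle list was lower in FAC (148 to 202 CPM) than in DFO (360 to 869 CPM, with 2 of its 3 markers in the files). The miRNA share of the library was 21.6% to 30.4% in FAC and 5.53% to 19.9% in DFO. The part of any of these in the miR-29a-3p difference was not tested.

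In the other comparisons no member was past the threshold in edgeR, against 9.51% of tested entries for FAC and CON, 9.32% for FAC and VE, 7.68% for DFO and CON and 10.4% for VE and CON. From CON to FAC the log2 fold change of miR-29a-3p was 1.36 (standard error 0.92, adjusted p = 0.607 in edgeR, 95% interval -0.45 to 3.17), beside a median of 1.38 over all tested entries. With edgeR's filterByExpr, which drops sparse entries, it was 1.17 beside a median of 0.079. With a library left out it ran from 0.99 to 2.68, with unadjusted edgeR p of 0.00682 to 0.330 and adjusted p of 0.233 to 0.741. It was 2.68 without CON replicate 3, the library with the highest CON level, whose removal by itself lowers the CON level. From VE to FAC it was 1.14 (standard error 0.92, adjusted p = 0.521 in edgeR), with no overlap of the libraries, as for 14.6% of tested entries. There the stromal list was also higher in FAC (37294 to 66655 CPM) than in VE (14034 to 20803 CPM). Nearly all of that sum was miR-143-3p, with means of 47384 CPM in FAC and 16803 CPM in VE. The epithelial list was at 0.203 to 18.5 CPM in FAC and at 0 in VE, and the neuronal list at 0 in FAC and at 8.02 to 18.1 CPM in VE. The miRNA share of the library was 21.6% to 30.4% in FAC and 9.20% to 14.6% in VE. The part of these in the difference was not tested. DFO and VE differed from CON by -0.63 and 0.21 (standard errors 0.91, adjusted p = 0.924 and 1 in edgeR), and these signs also changed with the scaling. The 3 comparisons with FAC share the FAC libraries, as the comparisons with CON share the CON libraries.

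**Figure D2:**
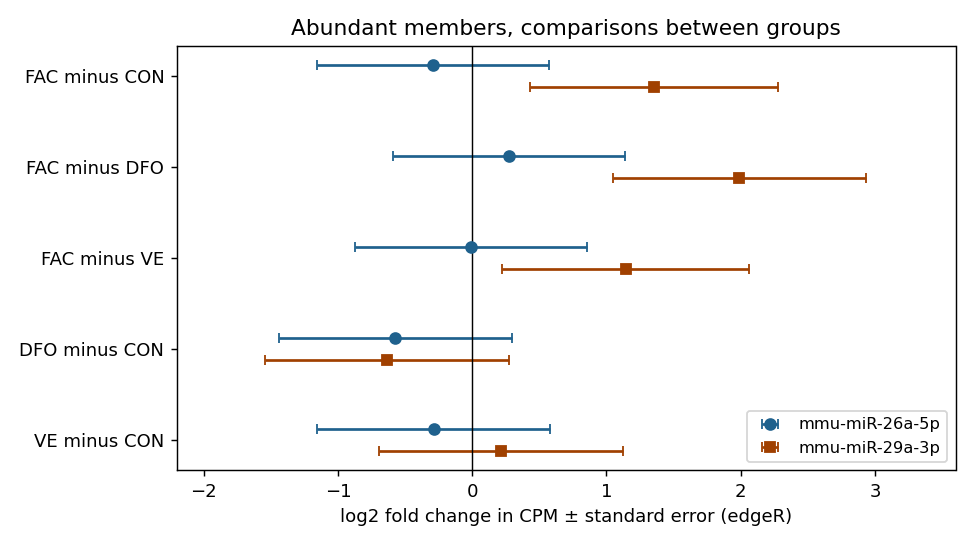
log2 fold change in CPM from edgeR (horizontal axis) of miR-26a-5p (circles) and miR-29a-3p (squares) in the 5 comparisons (vertical axis, first group minus second), with bars of 1 standard error. miR-26a-5p lies within 1 standard error of 0 throughout, and miR-29a-3p is farthest from 0 between FAC and DFO (1.99 ± 0.94).

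The comparison of the abundant members with CON depended on the scale. RPM divides by the library total, of which miRNAs were a larger part in FAC than in CON, whereas CPM divides by the miRNA counts alone. On the RPM scale miR-29a-3p was at 10.4, 0.972 and 16.2 in CON, 188, 339.7 and 130.5 in FAC, 24.1, 52.8 and 7.57 in DFO, and 22.3, 52.1 and 43.7 in VE. miR-26a-5p was at 37.1, 13.6 and 7.53 RPM in CON, 261, 148 and 52.2 in FAC, 31.1, 108 and 26.7 in DFO, and 32.5, 70.5 and 68.8 in VE. Both were higher in every FAC library than in every CON library, as were 31.4% of all tested entries. The libraries of miR-29c-3p did not overlap either, but on 5, 5 and 2 counts against 0, 0 and 1, which is at or near the floor. For miR-29a-3p the FAC libraries also lay above those of DFO (16.1% of entries) and VE (23%), and the VE libraries above those of CON (21.6%).

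With edgeR on counts scaled by the library read totals, the log2 fold change from CON to FAC was 4.57 for miR-29a-3p (adjusted p = 0.00172) and 2.99 for miR-26a-5p (adjusted p = 0.0393), while 16.3% of all tested entries had an adjusted p under 0.05. The median of all tested entries then stood at 4.35, sparse entries included. Over the alternatives that left out no library of the compared groups, the adjusted p of this comparison ran from 0.00172 to 0.910 for miR-29a-3p and from 0.0174 to 1 for miR-26a-5p. Of the 25 tests of the 5 members in the CPM fit, 0 had an adjusted p under 0.05 in edgeR and 1 an unadjusted p under 0.05. Of all tested entries, 0.183%, 0.914% and 0.366% had an adjusted p under 0.05 when FAC was compared with CON, DFO and VE in turn. For DFO against CON the share was 0.548%, and for VE against CON it was 2.01%.

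**Figure D3:**
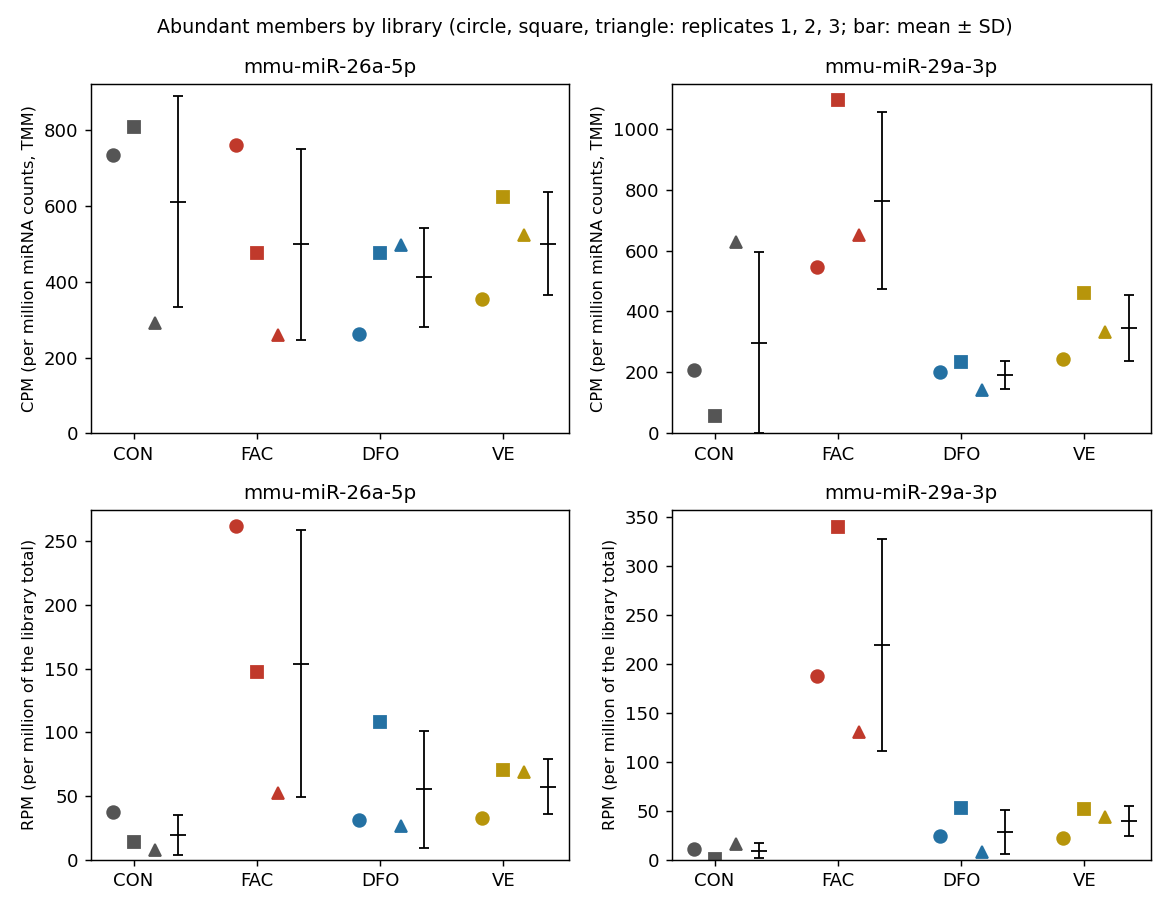
Levels of miR-26a-5p (left) and miR-29a-3p (right) by library, as CPM (top) and RPM (bottom), with circles, squares and triangles for replicates 1, 2 and 3 and black bars for the mean ± SD of 3 libraries. On the CPM scale miR-26a-5p overlaps between all groups and miR-29a-3p is higher in FAC than in DFO and VE, while on the RPM scale both members are higher in every FAC than in every CON library.

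The ratio of the abundant members to each other is free of either scale. miR-29a-3p had 0.282, 0.0717 and 2.15 counts per count of miR-26a-5p in CON replicates 1 to 3 and 0.718, 2.30 and 2.50 in the FAC replicates. The ratio was 0.776, 0.489 and 0.284 in DFO and 0.685, 0.739 and 0.635 in VE. miR-29a-3p was the more abundant in CON replicate 3 and in FAC replicates 2 and 3, and miR-26a-5p in the other 9 libraries, and the libraries of all 4 groups overlapped. Across the 12 libraries, which share the normalisation and the group structure, the CPM levels of both had a Spearman rho of -0.371.

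miR-26b-5p was found at more than 3 counts in FAC alone, and there in 2 of 3 libraries. Its counts were 0, 0 and 0 in CON, 0, 30 and 421 in FAC, 1, 3 and 1 in DFO, and 0, 1 and 1 in VE. FAC replicate 1, the library with the most miRNA counts, had none, so FAC overlapped with every other group, and 421 of its 451 FAC counts came from FAC replicate 3. miR-26b-5p passed the filter on low counts through FAC alone, so a difference was built in, and the study itself singled it out on these libraries, so its direction is not independent evidence.

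The summed counts of miR-26b-5p were 451 in FAC, 0 in CON, 5 in DFO and 2 in VE. Without FAC replicate 3 the FAC counts were 0 and 30, or 0 and 4.01 CPM, and the floor in CON was up to 7.90 CPM, so no fold is given. In edgeR, which weighs the spread between libraries, the unadjusted p was 0.0506 against CON, 0.127 against DFO and 0.0826 against VE, and the adjusted p was 0.522, 0.458 and 0.521. DESeq2 gave unadjusted p of 0.0108, 0.0192 and 0.00508 and adjusted p of 0.0803, 0.0950 and 0.0792 for the same comparisons. As miR-26b-5p passed the filter on low counts through FAC alone, these p-values are not evidence of a difference. The DFO libraries also lay above CON without overlap, as did 6.03% of tested entries in either direction, but 1 to 3 counts against 0 are within the floor, so a difference was not detectable at this depth.

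miR-29b-3p had 19 counts in CON replicate 3, 19 and 135 in FAC replicates 1 and 2, and 1 in FAC replicate 3. DFO replicate 2 and VE replicate 2 had 2 counts each, and the other 6 libraries had none. It was thus above 3 counts in 3 libraries of 2 groups, and the groups overlapped. Its summed counts were 155 in FAC, 19 in CON, 2 in DFO and 2 in VE. Scaled by the summed miRNA counts after TMM, FAC stood at 0.871 times CON (exact counting interval 0.539 to 1.49). It stood at 36.3 times DFO (9.88 to 302) and at 30.1 times VE (8.20 to 251), these 2 resting mainly on FAC replicate 2. The intervals cover counting error only, not the spread between libraries. The adjusted p in edgeR was 0.458 to 0.984 over the 5 comparisons.

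miR-29c-3p stayed at or near the floor, with no more than 5 counts in a library. It had 5, 5 and 2 counts in FAC, 4, 3 and 0 in DFO, 1, 0 and 2 in VE and 0, 0 and 1 in CON. FAC against CON came to 1.28 in summed counts after scaling (exact counting interval 0.190 to 54.8), and the adjusted p in edgeR was 1 in all 5 comparisons. The interval covers counting error only, and a difference in this member was not detectable at this depth.

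**Figure D4:**
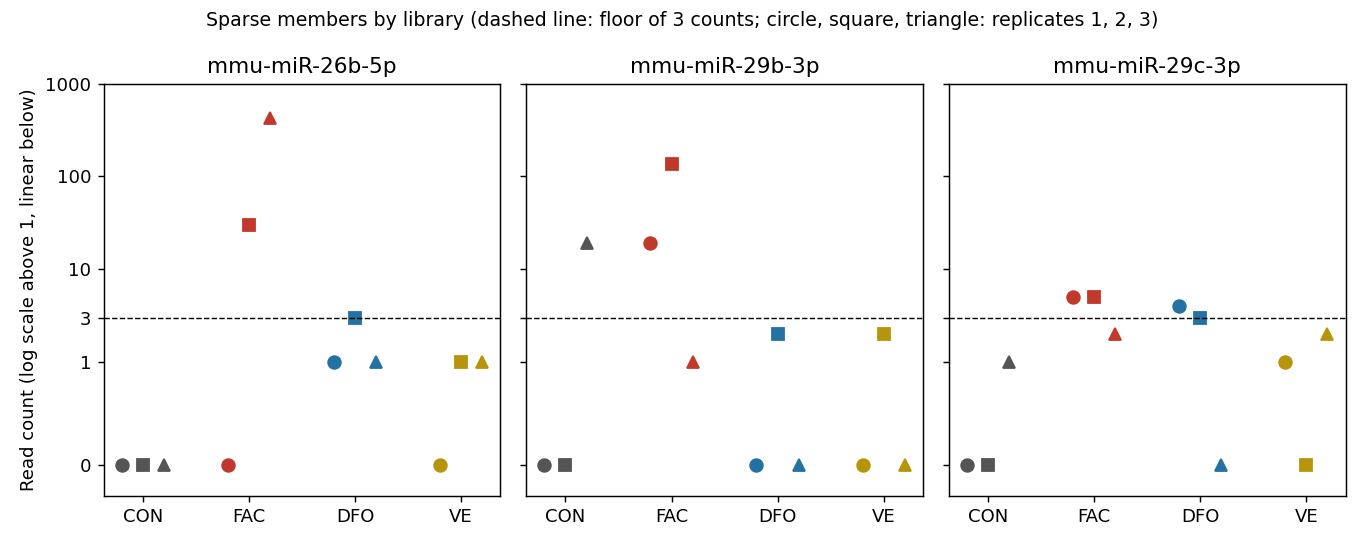
Read counts of miR-26b-5p, miR-29b-3p and miR-29c-3p in each library (vertical axis, log scale above 1 and linear below), by group, with circles, squares and triangles for replicates 1, 2 and 3 and a dashed line at the floor of 3 counts. miR-26b-5p stands out in FAC replicates 2 (30) and 3 (421), miR-29b-3p in FAC replicate 2 (135), and miR-29c-3p is at 5 counts or fewer throughout.

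The low counts have to be read against the form of these libraries. The commonest count among entries with 10 to 500 counts, read as the peak of their smoothed distribution, lay between 20.3 and 198, depending on the library, rather than near 1 read. The 30 and 421 counts of miR-26b-5p were 1.48 and 2.14 times that commonest count in FAC replicates 2 and 3, and the 135 counts of miR-29b-3p were 6.66 times it in FAC replicate 2. The 19 counts of miR-29b-3p were 0.324 of it in FAC replicate 1 and 0.0961 of it in CON replicate 3. What sets the commonest count was not tested.

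The opposite arms of the hairpins were nearly absent. Of the 7 listed arms 4 were entries of the files, and the other 3 were not analysed here. miR-26a-1-3p had 36 counts, all in FAC replicate 1, and miR-26b-3p had 25, all in FAC replicate 2, the library in which miR-26b-5p had 30. FAC replicate 3, with 421 counts of miR-26b-5p, had none of miR-26b-3p. miR-26a-2-3p had 1 count in VE replicate 3, and miR-29c-5p had 6 in FAC replicate 2, 1 in DFO replicate 3 and 7 in VE replicate 3. The 3 arms with enough counts to be tested gave 0 calls past the threshold in the 5 comparisons in edgeR, against 7.68% to 12.2% of all tested entries. miR-26a-1-3p and miR-26b-3p had 0 counts in CON, DFO and VE. They passed the filter on low counts through FAC alone, and no call was possible for them without FAC. miR-29c-5p, with 8 counts outside FAC, also needed its 6 FAC counts to reach the filter of 10.

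Of the 10 widely expressed miRNAs listed for comparison, 2 were past the threshold and higher from CON to FAC, 3 from DFO to FAC and 1 from VE to FAC, with 1 lower from CON to DFO and 0 from CON to VE. Of all tested entries, 2.38%, 4.75% and 4.39% were past it and higher in FAC in the 3 comparisons, and 4.94% lower in DFO than in CON. In edgeR none of the 10 reached an adjusted p under 0.05 in these comparisons, the lowest being 0.125. Their median log2 fold change was 0.79 from CON to FAC, 0.97 from DFO to FAC and 0.90 from VE to FAC. miR-29a-3p, at 1.36, 1.99 and 1.14, lay above these medians, and miR-26a-5p, at -0.30, 0.28 and -0.01, below them.

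The miRNAs most like each abundant member were sought among 100 entries with at least 10 counts in every library, by the Spearman rho of log2 CPM over the 12 libraries, as a description. miR-1839-5p was closest to miR-29a-3p (rho 0.902), with 314 ± 394 CPM in CON, 712 ± 287 in FAC, 219 ± 145 in DFO and 246 ± 123 in VE (SD, n = 3 each). It was followed by miR-24-3p (0.769) and miR-298-5p (0.762), which were also highest in FAC by their means. For miR-26a-5p the closest were miR-10b-5p (0.755), the joined entry of miR-199a-3p and miR-199b-3p (0.629), which is on the stromal list, and miR-30e-3p (0.622). The libraries behind these values share their groups and their scaling, and the 3 closest of 100 were picked for their rho.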

How the data were processed

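Small RNA of exosomes was sequenced by the authors on an Illumina HiSeq with reads of 15 to 41 bp after extraction with the exoEasy Maxi kit. The authors deposited raw counts per miRNA entry and RPM values per library. The submitters' processing notes name mm9. The aligner, the miRNA database, the treatment of reads with several matches and the reads behind the RPM total are not given in the sources used here. Library totals were obtained here as count divided by RPM.

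Groups came from the labels. Counts were tested with edgeR 4.0.16 (quasi-likelihood F test, TMM factors, all 12 libraries in 1 fit with group alone) on the 547 entries whose counts summed to 10 or more, with Benjamini-Hochberg adjustment over these. The threshold was the study's, a fold change of 1.5 and an unadjusted p of 0.05. Standard errors are the log2 fold change over the root of the F statistic. No count model was used on RPM values. DESeq2 1.42.0, limma 3.58.1 on log2(RPM + 1) and log2(RPM + 0.1), other scalings, filters, 2-group fits, a replicate block and each library left out were alternatives. Pairs within families were tested by exact sign flips. The edgeR script was tested on simulated data, with a pass rule only at a spread far below that of these libraries. How well it detects changes at their spread is not given here. No libraries were duplicates by a chi-square test of all pairs. edgeR's fitted fold changes are given only where every library of a compared group had more than 3 counts, and sparser members are described by their counts.

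The members, the marker lists and the list of widely expressed miRNAs were chosen with earlier results of these data known. The text names the 5 members, the other arms of their hairpins with a count, listed miRNAs past an adjusted p of 0.05, and the 3 entries most like each abundant member. The 4 granulosa markers were miR-132-3p, miR-212-3p, miR-202-5p and miR-503-5p. The epithelial list summed to 0 to 225 CPM, the neuronal list (1 of 2 in the files) to 0 to 149 CPM and the muscle list to 131 to 869 CPM.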

Additional observations from a re-analysis of the deposited data

How the results depend on the processing

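The 4 comparisons within libraries kept their direction and their side of 0.05 under all 56 alternatives. The number of members past the threshold was within 1.5 times the main number in 58 of 80 alternatives. From CON to FAC, 0 members became 3 with library read totals, 1 in the 2-group fit, 1 in DESeq2, 2 on log2(RPM + 1), 3 on log2(RPM + 0.1), and 0 to 1 with a library left out (1, miR-29a-3p, without CON replicate 3). The only call in the 2-group fit and in DESeq2 was miR-26b-5p, which passed the filter on low counts through FAC alone. From DFO to FAC, 1 became 0 with RLE factors, 2 in DESeq2, 3 on log2(RPM + 0.1), and 0 to 1 with a library left out. From VE to FAC, 0 became 2 with library read totals, 2 in the 2-group fit, 1 in DESeq2, 1 on log2(RPM + 1) and 3 on log2(RPM + 0.1). miR-26b-5p was among the calls from VE to FAC in all of these but log2(RPM + 1). From DFO to FAC it was among the calls in DESeq2 and on log2(RPM + 0.1). From CON to DFO, 0 became 1 in DESeq2 (miR-29b-3p, lower). From CON to VE, 0 became 1 with library read totals, 2 on log2(RPM + 1) and 1 on log2(RPM + 0.1). The cause of these changes was not tested. The share of all tested entries past the threshold under each alternative is not given here, so these counts cannot be set against it.

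Of the fold changes of miR-26a-5p and miR-29a-3p, 34 of 160 changed sign. For miR-26a-5p from CON to FAC (-0.30), values were 0.076 with total counts, 2.99 with library read totals, 2.93 on log2(RPM + 1), 3.01 on log2(RPM + 0.1) and -0.76 to 0.14 with a library left out. From DFO to FAC it was -0.035 with filterByExpr and -0.18 to 0.60 with a library left out. From VE to FAC (-0.01) it was 0.079 with RLE factors and in DESeq2, 0.34 with total counts, 1.42 with library read totals, 0.20 with no filter, 0.22 in the 2-group fit, 1.21 and 1.22 on log2(RPM + 1) and log2(RPM + 0.1), and -0.30 to 0.48 with a library left out. With library read totals, log2(RPM + 1) and log2(RPM + 0.1), it was 1.51, 1.45 and 1.52 from CON to DFO and 1.56, 1.72 and 1.79 from CON to VE. miR-29a-3p under the same 3 was 1.61, 1.63 and 1.91 from CON to DFO, where leaving out a library gave -1.01 to 0.69 (0.69 without CON replicate 3). From CON to VE it was -0.18 with RLE factors and in DESeq2, and -0.34 to 1.36 with a library left out.

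No pairing of the libraries by replicate number was seen (mean correlation of deviations 0.00421 over 18 same-numbered pairs, 0 of them over 0.1). This does not show whether same-numbered libraries shared a culture or preparation. The replicate block changed no call, with 0 members past the threshold from CON to FAC and 1 from DFO to FAC. Fitted fold changes of the 3 sparse members depend on the prior count and are not given, and only their calls were counted. filterByExpr left 2 members to test, and the 2-group fits of DFO and VE with CON left 3. Depth limits the sparse members, with a floor of up to 7.90 CPM.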
